A study of Caenorhabditis elegans with 2 samples.

Results

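Cytosolic ribosomal protein genes of Caenorhabditis elegans were examined for binding of the transcription factor UNC-120 in embryos. The members were the protein-coding genes of the WBcel235 annotation whose symbol is rpl- or rps- followed by a number, with any dot or letter after it. There were 78 such genes among 19973 nuclear protein-coding genes, 47 of the large subunit (rpl-) and 31 of the small subunit (rps-). The study measured binding by chromatin immunoprecipitation and sequencing in 1 group with 2 biological replicates, and no second condition, stage or untagged strain was analysed here. Both replicates came from strain OP659, whose genotype is unc-119(tm4063) III; wgIs659, a transgenic line with GFP and FLAG fused to the C terminus of UNC-120. Chromatin from whole embryos of mixed stage and both sexes, taken 3 h after synchronization by bleaching, was sheared by sonication and precipitated with an antibody against GFP. The labels name a possible control experiment, which was not used here. In bulk material of this kind, binding in a few cells and weaker binding in all cells cannot be told apart, and RNA was not measured.

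UNC-120 is a MADS box protein of the serum response factor type and, with HLH-1 and HND-1, one of the regulators of body wall muscle formation in the worm. Ribosomal proteins are needed in every cell in nearly equal amounts: those of the small subunit help to decode messenger RNA, and those of the large subunit surround the site of peptide bond formation and the tunnel through which the new chain leaves. Their genes are scattered over the chromosomes and are among the most strongly transcribed by RNA polymerase II. In C. elegans the 5' end of many messages is cut off and replaced by a short spliced leader, so that the annotated 5' end of such a gene is often a splice acceptor and not the start of transcription.

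The data were ranked lists of bound regions, each with a summit (the position of strongest signal) and a score of peak strength given by the authors' peak caller. Because no source used here states the scale of that score, scores served to rank and describe regions within a list. The lists in genome build ce11 were used, which has the sequence of WBcel235. The authors' shorter list, filtered on agreement between replicates by the irreproducible discovery rate (IDR), held 2946 nuclear regions, and these were the same 2946 summits and scores found in the list of both replicates pooled, which held 29995. No list holds read counts, so depth is unknown and no value carries a counting error. A gene was called bound when an IDR summit lay from 1000 bp upstream to 500 bp downstream of an annotated 5' end of one of its coding transcripts. Ranks count nuclear regions from the highest score, and each replicate had its own list of about 30000 regions with its own score scale. By their deposited description the pooled and replicate lists hold background as well as peaks, so low ranks there need not be binding. Genes are not replicates of one another, so counts over members are given beside the same counts over all protein-coding genes, without a test.

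The sequences under the summits shared several short words. Windows of 201 bases centred on member summits are shown for 7 bound and 2 unbound members, because they hold the words, or, for rpl-35, lack them all at a high score. Each is written 5' to 3' along the ribosomal protein gene, from the WBcel235 genome sequence of RefSeq. Capitals mark 4 words: first TACCGTA, as the second TAGGCCA, as the third ACACTCG, and lastly the word GGTCTCG. They were read on both strands, so that a word may also appear as its reverse complement (TACGGTA for the first).
rpl-15 (chrIV:654813-655013, minus strand): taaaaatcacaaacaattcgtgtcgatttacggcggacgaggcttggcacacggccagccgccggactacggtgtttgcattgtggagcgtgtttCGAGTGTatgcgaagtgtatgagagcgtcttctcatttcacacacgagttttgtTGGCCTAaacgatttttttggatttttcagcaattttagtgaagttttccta
rpl-20 (chrIV:4749965-4750165, minus strand): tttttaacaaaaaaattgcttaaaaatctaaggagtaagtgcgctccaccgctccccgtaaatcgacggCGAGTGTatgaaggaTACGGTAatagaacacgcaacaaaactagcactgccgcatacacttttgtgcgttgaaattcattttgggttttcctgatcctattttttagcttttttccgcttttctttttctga
rpl-6 (chrIII:7208027-7208227, plus strand): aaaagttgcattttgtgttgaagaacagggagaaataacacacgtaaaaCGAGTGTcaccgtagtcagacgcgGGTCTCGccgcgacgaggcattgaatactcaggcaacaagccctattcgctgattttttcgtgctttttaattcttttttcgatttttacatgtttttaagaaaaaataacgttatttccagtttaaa
rps-23 (chrIV:12391225-12391425, minus strand): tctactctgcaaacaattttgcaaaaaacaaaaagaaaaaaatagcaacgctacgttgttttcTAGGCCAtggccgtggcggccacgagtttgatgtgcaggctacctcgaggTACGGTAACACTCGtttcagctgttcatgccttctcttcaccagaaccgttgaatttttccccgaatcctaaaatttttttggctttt
rpl-33 (chrII:7105106-7105306, plus strand): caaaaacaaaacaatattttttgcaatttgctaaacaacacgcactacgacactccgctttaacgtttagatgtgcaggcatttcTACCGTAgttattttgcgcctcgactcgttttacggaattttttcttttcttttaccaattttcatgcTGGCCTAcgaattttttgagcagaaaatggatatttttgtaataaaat
rpl-29 (chrIV:13881842-13882042, plus strand): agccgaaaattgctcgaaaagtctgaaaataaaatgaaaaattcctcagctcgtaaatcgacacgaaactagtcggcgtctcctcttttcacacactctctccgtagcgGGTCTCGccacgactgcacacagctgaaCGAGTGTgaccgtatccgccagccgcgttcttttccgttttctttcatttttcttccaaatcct
rpl-35 (chrIII:7854624-7854824, plus strand): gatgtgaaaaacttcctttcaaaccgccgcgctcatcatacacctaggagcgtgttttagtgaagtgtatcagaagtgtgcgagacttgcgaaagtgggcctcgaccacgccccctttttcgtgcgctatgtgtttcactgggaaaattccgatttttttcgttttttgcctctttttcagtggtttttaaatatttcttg
rpl-21 (chrIII:8130396-8130596, minus strand, not bound, weaker region): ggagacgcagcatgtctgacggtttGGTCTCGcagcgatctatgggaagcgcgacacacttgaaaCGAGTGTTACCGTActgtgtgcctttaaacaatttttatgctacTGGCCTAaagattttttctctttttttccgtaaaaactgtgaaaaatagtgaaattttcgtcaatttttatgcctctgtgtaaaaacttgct
rps-8 (chrIV:7314022-7314222, minus strand, not bound, weaker region): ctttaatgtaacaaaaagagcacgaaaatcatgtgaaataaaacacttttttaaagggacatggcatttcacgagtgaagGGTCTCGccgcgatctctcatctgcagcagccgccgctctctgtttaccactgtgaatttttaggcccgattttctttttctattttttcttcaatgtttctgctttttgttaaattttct

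The window of the unbound gene rpl-21 held all 4 words. The first 3 words were among the 5 with the largest excess at member summits out of 8192 distinct words of 7 letters (each counted with its reverse complement, and skipping words that share a run of 5 letters with a higher one). They were thus chosen from these windows, and their counts describe the windows and support nothing further. Here every distinct summit of a member was counted, second summits too. TACCGTA lay within 100 bp of 15 of 49 member summits (30.6%) and of 67 of all 2946 IDR summits (2.27%). It was in 3.31% of windows centred 280 bp upstream of every protein-coding gene. TAGGCCA was found at 13 member summits (26.5%), 2.58% of all IDR summits and 1.90% of the upstream windows. ACACTCG was found at 13 member summits (26.5%), 2.95% of all IDR summits and 1.01% of the upstream windows. At least 1 of these 3 words was present at 28 of 49 member summits (57.1%), against 7.30% of all IDR summits and 6.04% of the upstream windows.

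The words differed in where they lay. Matches at the 2 summits that each serve a pair of members transcribed away from each other were left out here. They have no single direction along a gene. Summits shared with a divergent gene that is no member were kept. Direction there was read along the ribosomal protein gene, even where the other gene was nearer, as at rps-23 and rpl-33. In the other bound members TACCGTA sat close to the summit: 11 of its 14 matches lay within 40 bp of it, and along the gene it read as written in 8 matches and as its reverse complement in 6. ACACTCG lay within 40 bp of the summit in 8 of 12 matches and read CGAGTGT along the gene in 9 of them. TAGGCCA lay on the gene side of the summit in 10 of 13 matches, at a median of 52 bp towards the gene, and read TGGCCTA along the gene in 11. The remaining 2 of the 5 words were CCTAAAA, at 15 member summits (30.6%, against 2.55% of all IDR summits), and AAAAATT, at 29 (59.2%, against 13.8%). CCTAAAA can overlap TGGCCTA by 4 letters, as it did at rps-28. AAAAATT was in 41.6% of the windows upstream of every gene, so its share at member summits differed less from that of promoters at large.

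Words also occurred side by side, an arrangement looked at after the words had been chosen from the member windows. CGAGTGT was followed after 1 base by ACCGTA, the last 6 letters of the first word, at 8 member summits (16.3%), 12 of all 2946 IDR summits (0.407%) and 24 of 19973 upstream windows (0.120%). The genes with this arrangement were rpl-1, rpl-6, rpl-22, rpl-29, rpl-34, rps-13, rps-23 and the pair rpl-24.1 and rps-10, which share a summit. It was also present at the weaker summits of the unbound members rps-7, rpl-21 and rps-29, which makes 3 of 23 (13.0%). GGTCTCG, noticed on reading the printed windows, was at 13 member summits (26.5%), at 10 of 23 weaker summits of unbound members (43.5%) and at 4.72% of all IDR summits. Each match is a run of letters and not a mapped site. All IDR summits include those of the members. The side by side counts, like those of the single words, describe the windows and support nothing further.

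Another 4 sequences, known targets of transcription factors or a simple repeat, were counted in the same windows. The CArG box, the known target sequence of serum response factors, was within 100 bp of 0 of 49 member summits, 1.46% of all IDR summits and 1.10% of the windows upstream of every gene. The GA repeat GAGAGAGA was at 0 of 49, against 16.3% of all IDR summits and 1.90% of the upstream windows. The E-box CAGCTG, a sequence recognised by factors of the MyoD class, was at 4 of 49 (8.16%) against 9.40% and 3.50%. TGATAA, recognised by GATA factors, was at 6 of 49 (12.2%) against 10.6% and 20.1%. For the E-box and TGATAA the share at member summits was thus near that of all IDR summits, and against the upstream windows it was higher for the one and lower for the other. All 4 were read on both strands. The mean GC content of the windows was 41.8% at member summits, 45.6% at all IDR summits and 34.4% in windows upstream of every gene, and its part in these shares was not tested.

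UNC-120 bound 49 of the 78 ribosomal protein genes (62.8%), against 1849 of 19973 protein-coding genes (9.26%). Under this rule the subunits had like shares: 29 of 47 large subunit genes (61.7%) and 20 of 31 small subunit genes (64.5%). The 29 unbound members, taken up further on, included 24 with a weaker region in the pooled list. Among the 49 bound genes the median score was 353, with quartiles of 239 and 448 and a range from 186 to 1136, and over all 1849 bound genes it was 301, with quartiles of 231 and 428. The median was 367 for large subunit genes and 313 for small subunit genes, and the ranges overlapped, from 186 to 1136 and from 193 to 565. The count moved with the rule that gives a summit to a gene. If a summit counted for its closest gene alone, up to 2000 bp away, 30 members were bound against 9.62% of all genes. The subunit shares then differed, with 22 of 47 large (46.8%) and 8 of 31 small subunit genes (25.8%), a difference that was not tested. Genes of the mitochondrial ribosome, named mrpl- and mrps-, were bound in 13 of 70 cases (18.6%).

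**Figure D1:**
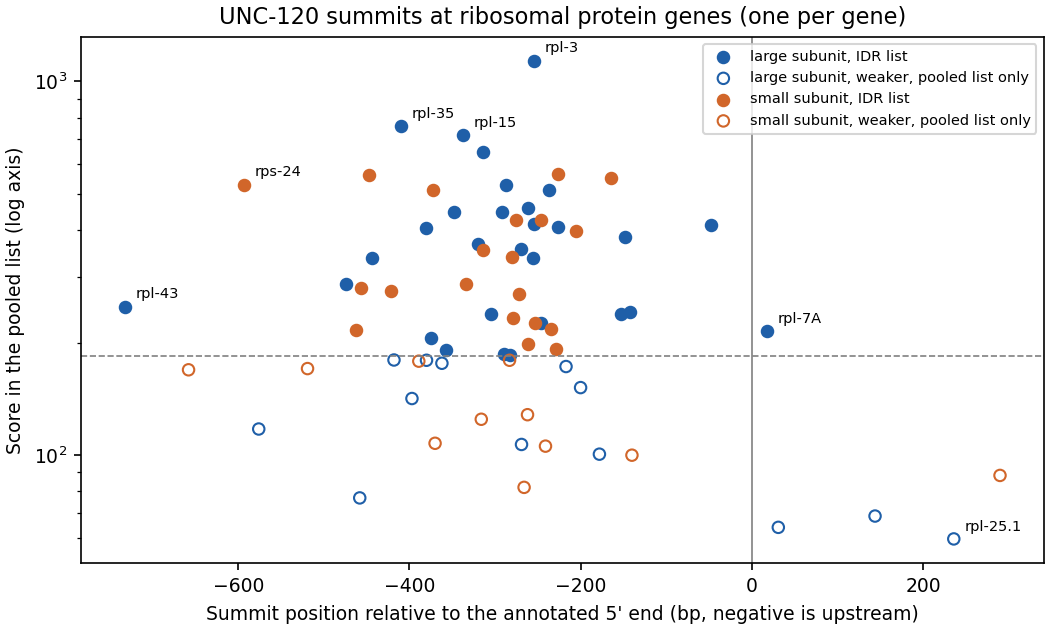
Score in the pooled list (log axis) against the position of the highest scoring summit relative to the annotated 5' end, in bp, for the 49 bound members and the 24 with a weaker region; filled points are IDR regions, open points weaker regions, and the dashed line is the weakest score of the IDR list (184.6). Most points of both subunits lie between 500 and 200 bp upstream, rpl-3 stands highest at 1136, and rpl-7A is the 1 bound member downstream, by 18 bp.

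The highest scores were at large subunit genes. rpl-3, whose protein reaches to the peptidyl transferase centre, lies on chromosome III and had its summit 254 bp upstream. That summit scored 1136 (rank 26), 512 in replicate 1 (rank 37) and 616 in replicate 2 (rank 19). It stood apart from the other members in both replicates and lay in the window of no other gene. rpl-35, whose protein sits near the exit of the peptide tunnel, had a summit 410 bp upstream that scored 758, 362 in replicate 1 (rank 149) and 396 in replicate 2 (rank 131). rpl-15 had a summit 337 bp upstream that scored 717, 337 in replicate 1 (rank 189) and 374 in replicate 2 (rank 154). rpl-23, whose protein lies at the interface between the subunits, had a summit 314 bp upstream that scored 646, 324 in replicate 1 (rank 213) and 317 in replicate 2 (rank 258). These 4 genes were the 4 highest members in replicate 2 as well, and in replicate 1 each ranked above rpl-24.1 at 257.

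The other 25 bound large subunit genes ranged down to the edge of the list. Scores from 528 to 405 were found, in falling order, at rpl-20, rpl-24.1, rpl-1, rpl-36.A, rpl-32, rpl-22, rpl-12, rpl-31 and rpl-34. Scores from 383 to 239 were found at rpl-24.2, rpl-6, rpl-14, rpl-9, rpl-11.2, rpl-30, rpl-43, rpl-25.2, rpl-18 and rpl-41.2. The lowest were rpl-39 (226), rpl-7A (215), rpl-5 (206), rpl-33 (191), rpl-7 (186) and rpl-29 (186). For rpl-33 the 2 replicates gave 108 (rank 2330) and 95.4 (rank 3302), for rpl-7 109 (rank 2300) and 87.4 (rank 3737), and for rpl-29 110 (rank 2241) and 74.7 (rank 4841). All 3 ranked higher in replicate 1 than in replicate 2, where they fell outside the highest 2946.

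The strongest small subunit genes scored close to one another. rps-20, whose protein lies in the head of the subunit, had a summit 226 bp upstream that scored 565, 259 in replicate 1 (rank 399) and 307 in replicate 2 (rank 282). rps-28 had a summit 447 bp upstream that scored 562, 263 in replicate 1 (rank 383) and 291 in replicate 2 (rank 335). rps-12 had a summit 164 bp upstream that scored 552, 260 in replicate 1 (rank 391) and 310 in replicate 2 (rank 268). All 3 ranked somewhat higher in replicate 2. rps-24 had 2 summits: one 593 bp upstream scored 529 (ranks 515 and 329 in replicates 1 and 2), and one 351 bp upstream scored 516 (ranks 567 and 407).

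The remaining 16 bound small subunit genes reached from rps-10 at 513 to rps-21 at 193. In falling order they were rps-10, rps-19, rps-1, rps-13, rps-0, rps-6, rps-3, rps-18, rps-26, rps-23, rps-4, rps-30, rps-17, rps-11, rps-2 and rps-21. rps-21, the lowest, had a summit 229 bp upstream, with 70.2 in replicate 1 (rank 4213) and 132 in replicate 2 (rank 2023). rps-2, whose protein lies beside the path of the messenger RNA, scored 198, with 68.6 in replicate 1 (rank 4374) and 130 in replicate 2 (rank 2059). Both ranked lower in replicate 1, as did the weak large subunit genes rpl-5, rpl-7A and rpl-39, while rps-17 (ranks 1789 and 3394) ranked lower in replicate 2.

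Summits sat at a narrow distance from the genes. The median position over the 49 bound members was 280 bp upstream of the annotated 5' end, with quartiles of 357 and 246 bp upstream, while over all 1849 bound genes it was 258 bp with quartiles of 481 and 122 bp. Large subunit genes had a median of 287 bp and small subunit genes of 277.5 bp. For 41 of 49 bound members (83.7%) the highest summit lay between 500 and 200 bp upstream, 23 of 29 for the large and 18 of 20 for the small subunit. Over all bound genes this was so for 651 of 1849 (35.2%). This band was chosen after the positions were seen. Outside it on the far side were rpl-43 (732 bp) and rps-24 (593 bp). The rpl-43 summit was nearer to its divergent neighbour Y48B6A.1, at 189 bp. On the near side were rps-12 (164 bp), rpl-18 (153 bp), rpl-24.2 (148 bp), rpl-25.2 (142 bp) and rpl-12 (48 bp), and rpl-7A had its summit 18 bp downstream. Summits downstream of the 5' end made up 9.19% of all bound genes.

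**Figure D2:**
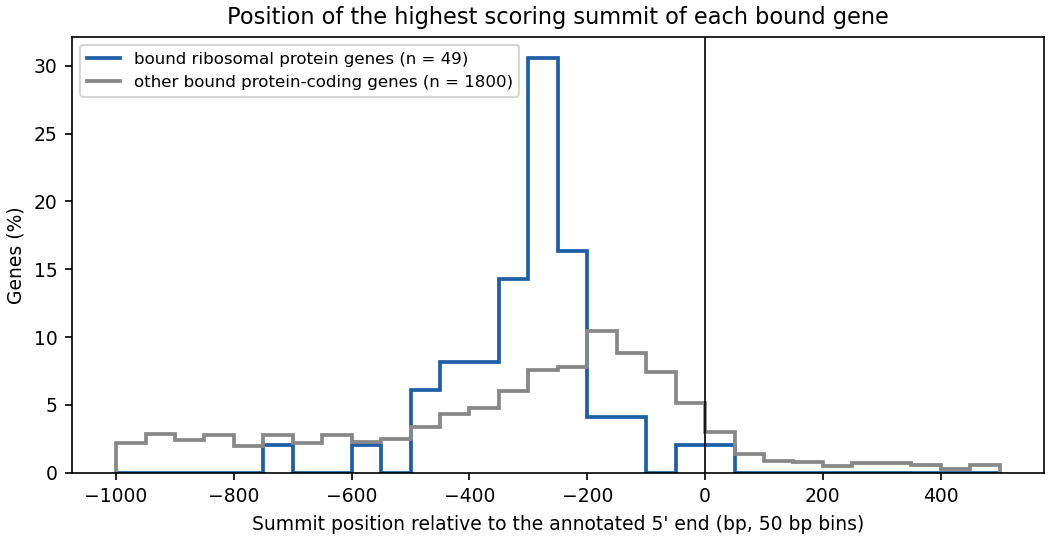
Share of genes (percent, bins of 50 bp) by the position of the highest scoring summit relative to the annotated 5' end, for the 49 bound ribosomal protein genes (blue) and the 1800 other bound protein-coding genes (grey). The members peak at 300 to 250 bp upstream, and the other genes spread from 1000 bp upstream to 500 bp downstream.

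Most members had a splice acceptor at the annotated 5' end. The acceptor was taken as TTNCAG in the 6 bases directly before it, read on the gene's strand only. It was present at an annotated 5' end of 64 of 78 members (82.1%), 36 of 47 large and 28 of 31 small subunit genes, against 5092 of 19973 protein-coding genes (25.5%). The 20 bases before an annotated 5' end are shown for 3 of the 8 highest scoring members, with the acceptor in capitals. They are written 5' to 3' along the gene, from the same genome sequence. For rps-24 this is the 5' end at 385894. Its summit position of 593 bp was measured from its other 5' end, at 385887, which has no such acceptor.
rpl-15 (chrIV:654577-654596, minus strand): tctaaccttttttcTTTCAG
rps-28 (chrIV:1659671-1659690, plus strand): ataatttcaatttcTTTCAG
rps-24 (chrIV:385874-385893, plus strand): aattcaaatttattTTGCAG

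Where the 5' end that a summit was measured from carried this acceptor, the summit lay 500 to 200 bp upstream in 36 of 39 members (92.3%) and in 302 of 599 of all bound genes (50.4%). The median positions there were 280 bp and 297 bp upstream. Members with this TTNCAG match were bound in 40 of 64 cases (62.5%) and those without it in 9 of 14 (64.3%). Over all genes the counts were 886 of 5092 (17.4%) and 963 of 14881 (6.47%). The match is strict, so genes without it may still have a splice acceptor there. Among the bound members without it, the bases before the 5' end closed with CAG at rpl-35 and with TAG at rps-23. The acceptor, like the 500 to 200 bp band, was looked at after the positions were known.

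Most member summits lay between genes. Of the 49 bound members 45 had their highest summit in intergenic sequence (91.8%), against 76.1% over all bound genes. The exceptions were rpl-24.2, with a summit in an intron of C03D6.1, rpl-30 in an exon of pab-1, rps-18 in an exon of sec-61.A, and rpl-7A in its own exon. The pab-1 gene encodes the poly(A) binding protein and sec-61.A the channel through which new proteins enter the endoplasmic reticulum. Summits within 200 bp of a tRNA, snoRNA or snRNA gene were found at 1 of 49 members, rps-26, where a snoRNA gene lay 96 bp away, against 6.22% of all bound genes. The median width of the regions was 338 bp for members (444 bp large, 259.5 bp small) and 444 bp for all bound genes. No member region was wider than 444 bp, and many had exactly this width, among them every weaker region of an unbound member. The subunit medians depend on how many regions had this width, and their difference was not tested. Besides rps-24, a second summit was present at rpl-30, which had one 474 bp upstream with a score of 287 (ranks 1949 and 1371 in replicates 1 and 2) and one 273 bp upstream at the edge of the list, with 184.6 (ranks 1949 and 2459). Both rpl-30 summits took their rank in replicate 1 from the same region.

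Many members were transcribed away from a close neighbour. An opposite-strand 5' end lay within 1000 bp upstream of 47 of 78 members (60.3%), 28 of 47 large and 19 of 31 small subunit genes, against 3729 of 19973 protein-coding genes (18.7%). With such a divergent neighbour 31 of 47 members were bound (66.0%), and without one 18 of 31 (58.1%). Over all protein-coding genes the shares were 17.5% and 7.37%. Members without a divergent neighbour, such as rpl-3, rpl-35, rps-28 and rps-24, thus included several of the highest scores.

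At divergent pairs a summit cannot be given to one gene with certainty. The highest summit was nearer to a 5' end of another gene in 19 of 49 bound members (38.8%), against 405 of 1849 bound genes (21.9%). By subunit these were 7 of 29 large and 12 of 20 small subunit genes, a difference that was not tested. All 19 had a divergent neighbour, which makes 7 of 18 large and 12 of 13 small subunit genes bound with one, and 321 of 652 over all genes (49.2%). rps-20 shared its summit with ekl-4, whose 5' end was 171 bp away against 226 bp for rps-20. rps-12 shared its summit with ska-3, a spindle and kinetochore gene, at 129 bp against 164 bp. Summits lay much closer to the partner at rpl-30 (14 bp from pab-1), rps-26 (35 bp from tmem-107), rps-18 (42 bp from sec-61.A), rps-0 (59 bp from rbg-3) and rpl-31 (79 bp from sac-2). The rpl-43 summit lay 189 bp from Y48B6A.1 against 732 bp for rpl-43.

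In all, the members had 49 distinct summits, of which 33 (67.3%) were also in the window of a gene that is no member. Among all summits given to a gene, 393 of 1587 (24.8%) lay in the windows of 2 or more genes. Counted by gene, the highest summit lay in the window of another gene, member or not, for 35 of 49 bound members (71.4%). Over all bound genes this was so for 779 of 1849 (42.1%). Other partners included ifet-1 at rps-1, which encodes a translational repressor, ify-1 (securin) at rpl-22, nuo-1 (a subunit of respiratory complex I) at rpl-36.A, lin-54 (a DNA-binding subunit of the DREAM complex) at rpl-12, and lpd-7 (a ribosome biogenesis gene) at rpl-9. At 2 bound summits both divergent neighbours were ribosomal protein genes. The rps-10 and rpl-24.1 pair, with 5' ends 610 bp apart, shared a summit of score 513, with 304 in replicate 1 (rank 257) and 208 in replicate 2 (rank 851). The rps-30 and rpl-39 pair, 499 bp apart, shared one of score 226, with 92.3 (rank 2898) and 135 (rank 1969).

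A gene on the same strand ended within 500 bp upstream of 8 members, an arrangement looked at after binding was known. Of these 2 were bound, rps-17 and rps-2, with upstream genes ending 481 and 357 bp away. The other 6 were unbound: rps-7, rps-16, rpl-16, rpl-27, rpl-25.1 and rpl-19. The gene upstream of rps-16, ending 110 bp away, was fib-1, which was itself bound with a score of 687. Of the 70 members without such a gene 47 were bound (67.1%). Over all protein-coding genes the counts were 177 of 3615 (4.90%) and 1672 of 16358 (10.2%).

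**Figure D3:**
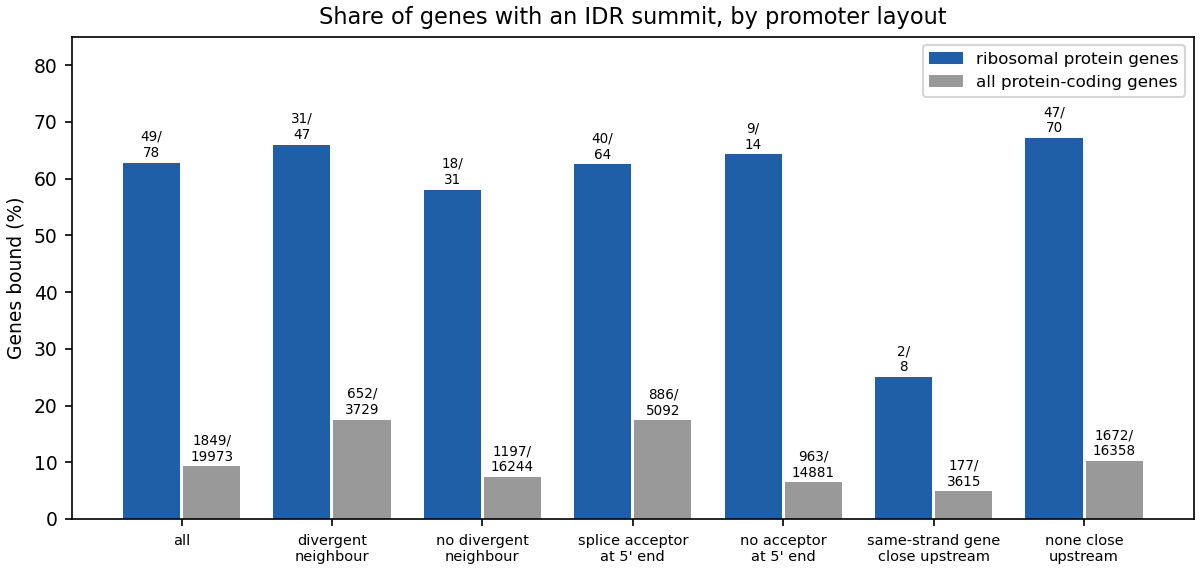
Percent of genes bound (bars from 0, with the counts above each), for ribosomal protein genes (blue) and all protein-coding genes (grey), split by divergent neighbour within 1000 bp, splice acceptor at an annotated 5' end and a same-strand gene ending within 500 bp upstream. The blue bars range from 58.1% to 67.1% except for the 8 members with a close same-strand gene (2 bound), and the grey bars range from 4.90% to 17.5%.

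The bound members came from a list filtered on agreement between replicates, so that a like placement in both was set by that choice and is only described. In each replicate 44 of 49 (89.8%) were among the highest 2946 regions, and 39 (79.6%) were in both, beside 79.4% of all bound genes. The median rank of the members was 1258 in replicate 1 and 1150 in replicate 2, with ranges from 37 to 4374 and from 19 to 4841. All bound genes had median ranks of 1407 and 1434. Outside the highest 2946 of replicate 1 were rpl-43, rpl-7A, rpl-5, rps-2 and rps-21. Outside those of replicate 2 were rpl-41.2, rps-17, rpl-33, rpl-7 and rpl-29. The widest gaps among these were at rpl-41.2, whose protein is among the shortest known, with ranks of 1390 and 4205, and at rpl-29, with 2241 and 4841.

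**Figure D4:**
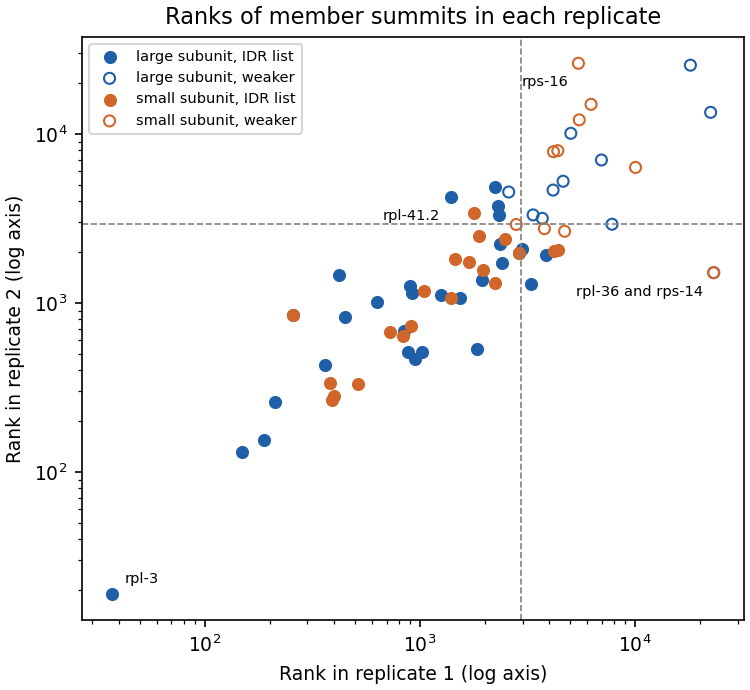
Rank of each member's summit in replicate 1 and replicate 2 (log axes, rank 1 is the highest score) for IDR regions (filled) and weaker regions (open), with dashed lines at rank 2946; the 3 weaker members with no region in replicate 1 are not drawn. The filled points run along the diagonal from rpl-3 (37 and 19), which the choice of the IDR list favours, while the open points scatter more widely, with rpl-36 and rps-14 at 23206 and 1509.

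Most unbound members had a weaker region that missed the threshold. Of the 29, 24 (82.8%) had a weaker summit of the pooled list in the same window, against 6206 of 18124 unbound protein-coding genes (34.2%). These were 13 of 18 large and 11 of 11 small subunit genes. Their median rank was 5106.5 and median score 121, against 12437.5 and 71.7 over all unbound genes with a weaker summit, and 12 of the 29 (41.4%) were in the highest 5000 of the pooled list, against 5.43%. Their summits had a median position 276 bp upstream, and 15 of 24 (62.5%) lay 500 to 200 bp upstream, against 1460 of 6206 (23.5%). No region at all was found in the window at rpl-10, rpl-19, rpl-26, rpl-28 and rpl-37.

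The step across the threshold was small. The lowest bound members, rpl-7 and rpl-29, ranked 2913 and 2921, and the highest unbound ones were rpl-17 at rank 3053, rpl-36 and rps-14 at 3062, rps-15 at 3090 and rpl-38 at 3137. rpl-17 scored 179.8, with 77.0 in replicate 1 (rank 3706) and 98.7 in replicate 2 (rank 3161). rpl-36 and rps-14 are transcribed away from each other, with 5' ends 663 bp apart. They shared a region of score 179.5, with 26.7 in replicate 1 (rank 23206) and 157 in replicate 2 (rank 1509). That region was thus among the highest 2946 in replicate 2 and far down the list in replicate 1. rps-15 scored 178.5, with 65.5 (rank 4706) and 111 (rank 2651), and rpl-38 scored 176, with 100.5 (rank 2587) and 77.7 (rank 4525).

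Further down the pooled list lay the other weaker members. Scores from 173 to 101 were found, in falling order, at rpl-4, rps-29, rps-27, rpl-13, rpl-2, rps-8, rps-9, rpl-41.1, rps-5, rpl-21, rps-7 and rpl-11.1. Scores from 100.05 to 59.7 were found at rps-22, rps-16, rps-25, rpl-16, rpl-42, rpl-27 and rpl-25.1. Of these 7, 4 had a summit downstream of the 5' end: rpl-27 by 31 bp, rpl-42 by 144 bp, rpl-25.1 by 236 bp and rps-16 by 290 bp. No region within 200 bp was found in replicate 1 for rps-22, rpl-42 and rpl-27.

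Genes that share a number but differ in a suffix were not always bound alike. A shared number need not mean copies of the same gene: rpl-7 and rpl-7A encode different proteins, as do rpl-36 and rpl-36.A. Both genes were bound for rpl-24.1 (513) and rpl-24.2 (383) and for rpl-7 (186) and rpl-7A (215). The 2 copies of the rpl-11 gene differed, with rpl-11.2 on chromosome X bound at 337 (ranks 1258 and 1112 in replicates 1 and 2) and rpl-11.1 at 101 (ranks 5029 and 10067). rpl-25.2 was bound at 242 (ranks 2404 and 1729), while rpl-25.1 had a score of 59.7 (ranks 18091 and 25462). rpl-41.2 was bound at 239 (ranks 1390 and 4205), while rpl-41.1 had 118 (ranks 4631 and 5239). rpl-36.A was bound at 448 (ranks 948 and 465), and rpl-36 missed the list, as given above.

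Other genes of the ribosome that the symbol rule leaves out were bound in 1 of 6 cases. The bound one was ubq-2, which encodes ubiquitin fused to a large subunit protein, with a score of 203 (rank 2606, and ranks 1774 and 4720 in replicates 1 and 2). Its summit lay 452 bp upstream and nearer to frg-1. The stalk genes, whose proteins recruit translation factors to the ribosome, were unbound, with scores of 48.3 at rla-0 and 70.1 at rla-1 and no region at rla-2. The same held for rack-1 (70.3), a signalling scaffold on the small subunit, and for ubl-1 (112), a fusion of a ubiquitin-like domain with a small subunit protein.

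Of 12 ribosome biogenesis genes 3 were bound. fib-1, which encodes the nucleolar RNA methyltransferase fibrillarin, scored 687 at a summit 48 bp upstream, and replicates 1 and 2 placed that summit at ranks 190 and 184. nol-58, a component of the same box C/D particles, had a score of 262 with a summit 966 bp upstream that was nearer to zip-4. lpd-7 shared the summit of rpl-9, scoring 338 (ranks 1531 and 1064). The other 9, nol-56, nst-1, pro-1, pro-2, pro-3, lpd-6, eif-6, dao-5 and ncl-1, were unbound. The highest of them was pro-1, with a score of 152 (ranks 3150 and 8924), and pro-2 had no region.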

How the data were processed

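The deposited lists were in narrowPeak format, with a score per region from the authors' peak caller (column 7), and depth is unknown because no list holds counts. No aligner, peak caller or score scale is given in the sources used. Per the listing deposited with the samples, there was a list per replicate, a pooled list and an IDR list in builds ce10 and ce11, of which only ce11 was used. Mitochondrial regions (5 in the IDR list) were set aside, and 0 regions passed a chromosome end. Gene models were Ensembl release 115, restricted to 5' ends of protein-coding transcripts. A gene took its highest scoring summit in the window, and its position was measured to its nearest annotated 5' end. For ranks in a replicate, the closest summit of its list within 200 bp was used, so neighbouring summits can share a rank.

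The members, lists and windows were chosen with earlier results of these data known. All members are named; given in full were the 8 highest and 4 lowest bound scores, members with several summits, the 4 highest unbound scores, members sharing a number, and 18 other ribosome genes. The sequence at rpl-3 is not reported here. No test was made, since the design has 1 group. The assignment of summits was tested on simulated data. Alternatives varied the window, 5' ends, threshold, distances, motif window and replicates; counting 5' ends of noncoding transcripts was added after seeing the data. Python 3.11.15, numpy 2.4.6, pandas 2.3.3 and matplotlib 3.10.9 were used.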

Additional observations from a re-analysis of the deposited data

How the results depend on the processing

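Of 73 values recomputed under the alternatives, 59 stayed within 1.5 times of the reported value and 14 moved further. Counts were compared without the share over all genes beside them, and a count of 0 that stayed 0 was taken as unmoved. The count of bound members was 48 with a window of 500 bp upstream to 100 bp downstream (6.73% of all genes) and 54 with 3000 bp upstream to the gene end (15.8%). The count stayed at 49 with the outermost 5' end (8.44%), whole regions (10.1%) or noncoding transcripts (9.27%). It was 30 with the nearest 5' end within 2000 bp (8 small subunit genes), and 28 (18 large, 10 small) in the upper part of the IDR list split at its median score (4.86%). In that upper part 11 summits were nearer to another gene. Leaving out a replicate meant taking the highest 2946 regions of the other replicate's list, with no filter on agreement. Without replicate 1 there were 50 bound members (9.25% of all genes), 27 of 47 large (57.4%) and 23 of 31 small (74.2%). Without replicate 2 there were 46 (9.03%), 27 of 47 large (57.4%) and 19 of 31 small (61.3%). The median scores were 180.4 and 173, on each replicate's own scale. With a limit of 500 bp, 19 members had a divergent neighbour (9.81% of all genes) and 15 of these were bound (78.9%, against 17.9% of all genes with one). The 1 summit near a small RNA gene became 0 under the nearest rule and 0 in the upper part of the list. TGATAA was at 18 member summits within 200 bp (36.7%, against 24.8% of all IDR summits) and at 2 within 50 bp (4.08% against 3.94%). The E-box was at 4 within 50 bp (8.16% against 5.47%), so that members were above all IDR summits there and below them within 100 bp and within 200 bp (10.2% against 13.3%). The median position stayed between 301.5 and 274.5 bp upstream. Weaker regions were at 20 of 29 unbound members among the highest 10000 pooled regions (13.8% of all unbound genes), and at 21 of 30 with the narrower window (22.0%). No paired analysis was possible because there is only 1 group. Only 2 replicates, unknown depth and an unstated score scale limit the precision of each rank.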

Other observations

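By chromosome, the bound ribosomal protein genes were counted over few genes each, and differences between chromosomes were not tested. On chromosome IV 14 of 17 members were bound (82.4%), against 8.32% of all protein-coding genes there, and on chromosome V 2 of 8, against 4.97%. The others were 15 of 23 on I (65.2%), 6 of 10 on II, 11 of 18 on III (61.1%) and 1 of 2 on X, where 12.9%, 8.44%, 13.1% and 11.6% of all genes were bound. Both bound members on chromosome V, rpl-39 and rps-30, share 1 summit.

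The words found at bound members were also counted at unbound ones. TACCGTA was at 1 of 23 weaker summits of unbound members (4.35%), TAGGCCA at 5 (21.7%), ACACTCG at 3 (13.0%), CCTAAAA at 3 (13.0%) and AAAAATT at 13 (56.5%). At weaker summits of other unbound genes the shares were 3.31%, 3.39%, 1.20%, 5.50% and 30.5%. GGTCTCG was at 3.22% of those summits and at 2.72% of windows 280 bp upstream of every gene. The difference between bound and unbound members was not tested, because the words were chosen from the bound ones.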
